A study of Heterocephalus glaber with 3 samples.

Results

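Chemokines, interleukins and their receptors were followed through the cell classes of lung tumours of the naked mole-rat (Heterocephalus glaber), a long-lived rodent, to describe which lineages were sources and which were receivers of these signals. Members were chosen by name alone: every gene symbol of the CCL, CXCL, XCL, CX3CL1, CCR, CXCR, XCR, CX3CR1 and IL series with a number was taken, apart from 4 symbols set aside by the rule. This gave 85 genes of the 23189 features in the count tables, of which 11578 carry a symbol. They are 11 chemokines, 12 chemokine receptors, 28 interleukins, 30 interleukin receptor chains and 4 soluble inhibitors. No level was used in the choice.

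The study profiled tumours of 3 animals by single-cell RNA sequencing, with 1 droplet library of 3′ ends per animal. All 3 carry the same treatment: an adenovirus with CRISPR reagents was given to create an Eml4-Alk inversion and to remove Rb, among other edits, and the lungs were taken 15 weeks after infection. Tumour tissue was dissected away from normal lung by hand and dissociated. The animals form 1 group with no untreated animal, their age and sex are not given in the labels, and all comparisons below are between cell classes of the same animals, which share one edited lung each.

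Chemokines are small secreted proteins that steer moving cells along gradients by binding receptors that span the membrane of leukocytes. Interleukins are secreted signals between leukocytes and tissue cells, and most act through receptors built of several chains, so that one chain can serve several ligands. In the lung, stromal and epithelial cells make alarm signals and chemokines of the steady state, while macrophages, dendritic cells and lymphocytes make most of the inflammatory ones.

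The libraries held between 76093932 and 91949365 UMIs (unique molecular identifiers, counted as RNA molecules), and 7929, 8891 and 7779 cells were kept in replicates 1, 2 and 3. Clusters were built without the members and named from marker genes. As shares of the kept cells, 25.0% ± 2.51 (SD, n = 3) were monocyte or macrophage-like, called macrophage-like below. T or NK-like cells held 21.4% ± 5.94, fibroblast or mural-like cells 11.8% ± 2.67, plasma-like cells 10.0% ± 6.21 and neutrophil-like cells 6.42% ± 2.98. Shares of the smaller classes were 5.21% ± 3.85 for B-like, 4.91% ± 0.404 for dendritic-like, 2.67% ± 1.41 for epithelial-like and 0.794% ± 0.299 for endothelial-like cells. Unnamed clusters held 11.1% ± 7.23. Replicate 3 had 65 B-like and 237 neutrophil-like cells, against 533 and 718 B-like and 689 and 668 neutrophil-like cells in replicates 1 and 2. The lowest barcode total was 2174 UMIs in replicate 3, against 1298 and 1150 in replicates 1 and 2. Among cells with at least 2000 UMIs, replicates 1, 2 and 3 had 190, 91 and 237 neutrophil-like cells, so the order of these counts changed with depth. B-like cells then numbered 178, 328 and 65. A cluster of macrophage-like cells led by IDO1, IFIT2 and IFIT3, genes that interferons induce, had 903, 1026 and 59 cells. Plasma cell markers were found outside their class: the 5 measured ones summed to between 2378 and 5374 CPM (UMIs per 1000000) in macrophage-like cells and between 322700 and 426600 CPM in plasma-like cells. Whether RNA free in the droplets or doublets gave these values was not tested. A low level of a member outside its main class was therefore not read as expression.

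Of the 85 members, 80 had a UMI in the kept cells, 64 had at least 30 UMIs and 66 passed the filter on low counts in at least 1 comparison of classes. IL19, IL20, IL9, IL1RAPL2 and IL18BP, named after their values were seen, had 0 UMIs. Among the source and receiver pairs on the list drawn up for this account, 68 of 110 symbols were measured. The other 42, CXCL12, CXCR4, CCL5, CXCR3, IL6 and IL4R among them, were not analysed here, and 11611 features carry no symbol. Several pairs below therefore have only 1 measured side.

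For each class, UMIs were summed per animal and set against the sum of all other kept cells of that animal, and values are given as CPM of those sums. Differences are log2 fold changes with standard errors from edgeR's quasi-likelihood test with the animal as block, and p-values are Benjamini-Hochberg adjusted over all features tested. Classes rest on clusters drawn from other genes of the same cells, so these p-values are not calibrated. More members were higher than the share of all features in neutrophil-like cells (20 of 57, 35.1%, against 14.6% of all features), dendritic-like cells (18 of 60, 30%, against 16.9%), macrophage-like cells (19 of 56, 33.9%, against 22.7%) and fibroblast-like cells (18 of 57, 31.6%, against 23.3%). The share was close to or under that of all features in T or NK-like cells (15 of 58, 25.9%, against 28.4%), plasma-like cells (10 of 55, 18.2%, against 22.7%), epithelial-like cells (6 of 57, 10.5%, against 19.2%), B-like cells (5 of 57, 8.77%, against 16.9%) and endothelial-like cells (3 of 54, 5.56%, against 10.3%). Members lower numbered 29 of 56 in macrophage-like (28.1% of all features were lower), 36 of 58 in T or NK-like (34.9%), 15 of 57 in neutrophil-like (15%), 26 of 60 in dendritic-like (24.5%) and 31 of 57 in B-like cells (25.2%). They numbered 35 of 55 in plasma-like (29.9%), 32 of 57 in fibroblast-like (24.1%), 18 of 54 in endothelial-like (14.9%) and 27 of 57 in epithelial-like cells (19.8%). The median member lay at -0.16 in neutrophil-like cells and at -2.25 in T or NK-like cells, beside medians of -0.21 and -0.04 over all features. These shares are descriptions of the list and were not tested, and some counts of members higher moved by over 1.5 times with the fit. In 1 joint fit over all classes 9 were higher in B-like, 10 in endothelial-like and 12 in epithelial-like cells. Without the animal as block 11 were higher in dendritic-like cells, and without replicate 2 there was 1 in endothelial-like cells.

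Fibroblast or mural-like cells were the main source of 3 chemokines, with 94.7% of the CCL19 UMIs, 96.1% of the CCL11 UMIs and 81.0% of the CXCL14 UMIs of all kept cells. CCL19, the ligand of CCR7 that lymphoid stroma makes, stood at 237, 325 and 98.0 CPM in replicates 1, 2 and 3, against 1.77, 3.97 and 1.87 CPM in all other cells (6.09 ± 0.35, adjusted p = 0.00075). CCL11, also called eotaxin, which attracts eosinophils through CCR3, stood at 156, 153 and 48.3 CPM against 1.81, 1.28 and 0.332 CPM (6.53 ± 0.19, adjusted p = 0.00061). CXCL14, a chemokine of resting epithelium and stroma, stood at 39.6, 24.8 and 52.5 CPM against 2.43, 0.916 and 3.06 CPM (3.98 ± 0.23, adjusted p = 0.00075). The groups did not overlap for any of the 3, and replicate 3 was the lowest for CCL19 and CCL11 but the highest for CXCL14. Epithelial-like cells were also higher in CXCL14, at 33.4, 11.4 and 31.9 CPM against 12.0, 3.66 and 10.2 CPM (1.33 ± 0.18, adjusted p = 0.00032), with overlapping ranges. Within that class CXCL14 lay in the cluster led by SCGB3A2, AGR2 and EPCAM, at 52.3, 40.6 and 45.8 CPM, and was at 0 or 1.34 CPM in the alveolar and ciliated clusters. Outside the named classes, the unnamed cluster led by MSLN, a mesothelial gene, held CXCL14 at 116, 55.4 and 50.3 CPM.

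Another 3 chemokines had their highest level in dendritic-like cells, which held 46.5% of the CCL17 UMIs, 32.1% of the CCL22 UMIs and 34.1% of the CXCL11 UMIs. The more numerous macrophage-like cells held 22.1%, 21.9% and 52.6% at lower levels, and most of the rest of CCL17 and CCL22 lay in unnamed clusters. CCL17, a ligand of CCR4 on T cells, stood at 482, 203 and 681 CPM against 9.64, 30.7 and 19.1 CPM elsewhere (4.46 ± 0.47, adjusted p = 5.8e-05). CCL22, the second CCR4 ligand, stood at 210, 87.9 and 135 CPM against 5.02, 24.6 and 7.16 CPM (3.74 ± 0.53, adjusted p = 0.00038). For both, replicate 2 was lowest in dendritic-like cells and highest in the other cells, and the difference ran from 3.87 to 5.26 for CCL17 and from 2.93 to 4.67 for CCL22 when replicate 1 or replicate 2 was left out. CXCL11, which interferons induce and which attracts T and NK cells through CXCR3, stood at 445, 579 and 53.8 CPM against 35.7, 65.8 and 1.11 CPM (3.85 ± 0.34, adjusted p = 1.9e-05). Its ranges overlapped, with replicate 3 low in every class, and without the animal as block it missed the threshold (3.38, adjusted p = 0.061). At Leiden resolution 2 the dendritic-like cells were split. A cluster of 825 cells led by ART3, CLEC9A and IRF8 had CXCL11 among its leading genes. Another of 268 cells, led by CCL17, CD207 and CCL22, had CCR7 among them. This CCL17 cluster had 84, 54 and 130 cells in replicates 1, 2 and 3, and its part in the levels per animal was not tested. The unnamed cluster led by TIMELESS, MPEG1 and NIBAN3, which scored for dendritic and B markers, had CCL17 at 10.3, 2.88 and 3.30 CPM but CCR7 at 66.9, 40.3 and 89.0 CPM.

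**Figure D1:**
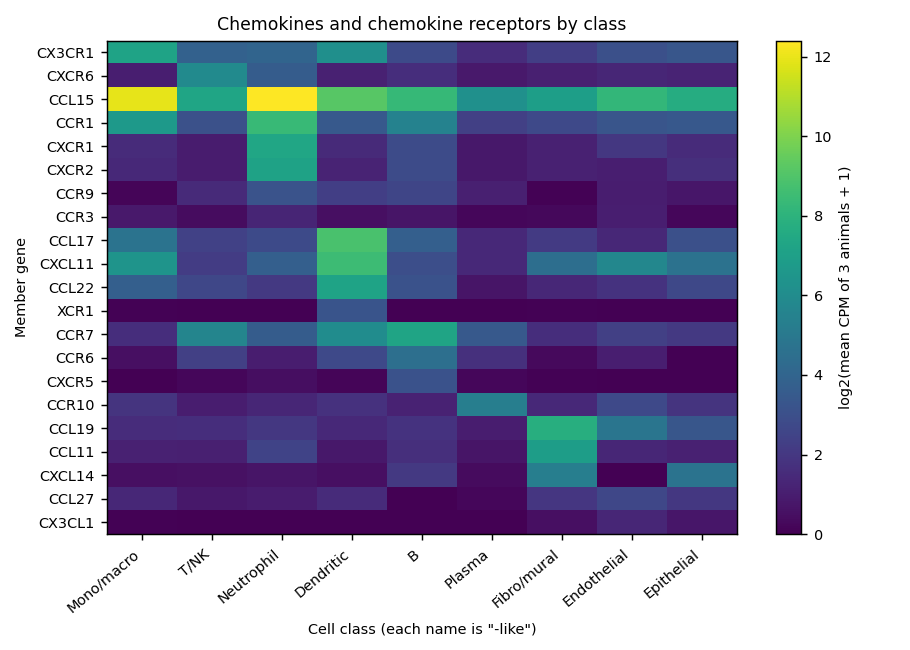
Mean level of each chemokine and chemokine receptor with at least 30 UMIs (rows) in the 9 named classes (columns), as log2(mean CPM of the 3 animals + 1). Rows can be compared along the row only, since levels of different genes are not on one scale: CCL19, CCL11 and CXCL14 are brightest in fibroblast or mural-like cells, CCL17, CCL22 and CXCL11 in dendritic-like cells, and CXCR1 and CXCR2 in neutrophil-like cells.

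CCL15, a ligand of CCR1 that attracts myeloid cells, was shared by neutrophil-like and macrophage-like cells. In neutrophil-like cells it stood at 6646, 6373 and 3178 CPM against 1920, 1386 and 1420 CPM (2.04 ± 0.30, adjusted p = 0.00011), and in macrophage-like cells at 5774, 3601 and 2571 CPM against 697, 386 and 982 CPM (2.64 ± 0.47, adjusted p = 0.0077). All 3 animals of each class were above all 3 of the other cells, and the macrophage difference was 3.34 without replicate 3. Chemokines of this family have near-identical copies in rodents, and how reads of copies were counted is not given in the sources used here, so the symbol CCL15 is uncertain. CXCL11 was also called in macrophage-like cells, at 91.2, 158 and 2.81 CPM against 40.2, 59.2 and 2.58 CPM (1.07 ± 0.31, adjusted p = 0.036), but the call was lost without replicate 1 (0.88, adjusted p = 0.18) or replicate 2 (0.74, adjusted p = 0.13). Most of it lay in the IDO1 and IFIT2 cluster, at 233, 325 and 96.2 CPM.

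The remaining chemokines were scarce. CCL27, a ligand of CCR10, had 349 UMIs over all kept cells and CX3CL1, the membrane-bound ligand of CX3CR1, had 45. The highest class mean of each was in endothelial-like cells (5.21 and 1.52 CPM), but from 5 and 3 UMIs. CCL27 was at 6.16, 0 and 9.48 CPM there against 1.48, 1.06 and 2.00 CPM, which overlapped and missed the threshold (1.04 ± 0.92, adjusted p = 0.46). Fibroblast-like cells held 116 of its UMIs and macrophage-like cells 104, and it was called higher in no class. CCL28, the mucosal ligand of CCR10, had 13 UMIs, and CCL20, the ligand of CCR6, had 5. Neither was measured well enough to name a source.

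Chemokine receptors marked the leukocyte lineages. CXCR1 and CXCR2, which bind the neutrophil-attracting CXCL chemokines, were highest in neutrophil-like cells: CXCR1 stood at 205, 186 and 95.6 CPM against 1.91, 0.995 and 1.49 CPM (7.10 ± 0.34, adjusted p = 2.5e-09). CXCR2 stood at 159, 208 and 58.5 CPM against 1.58, 1.44 and 1.17 CPM (6.88 ± 0.34, adjusted p = 3.4e-09). The ranges were far apart in both, and replicate 3 was the lowest of the neutrophil-like samples. The 2 receptors are close copies of each other in mammals, so reads could be split between them. Their ligands among CXCL1 to CXCL8 were not analysed here.

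CCR1, the receptor for CCL15 and several other CCL chemokines, was high in the same classes as CCL15. It stood at 263, 571 and 146 CPM in neutrophil-like cells against 24.0, 66.1 and 36.2 CPM (3.22 ± 0.30, adjusted p = 1.9e-06), and at 73.3, 140 and 94.9 CPM in macrophage-like cells against 13.8, 39.7 and 14.1 CPM (2.38 ± 0.15, adjusted p = 0.00052). Replicate 2 was highest in both classes and the groups did not overlap in either. CX3CR1, the fractalkine receptor of monocytes and resident macrophages, stood at 185, 197 and 51.2 CPM in macrophage-like cells against 16.2, 21.8 and 16.9 CPM (2.85 ± 0.47, adjusted p = 0.0059), and at 3.55 without replicate 3, its lowest sample. CCR3, the receptor of CCL11, had 98 UMIs in all, and its call in macrophage-like cells (1.56 ± 0.36, adjusted p = 0.018) was lost without replicate 1 (1.44, adjusted p = 0.11) or replicate 2 (1.27, adjusted p = 0.10).

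XCR1, the receptor that marks cross-presenting dendritic cells, was the member most confined to 1 class. It stood at 10.7, 8.18 and 6.03 CPM in dendritic-like cells against 0.0458, 0.0785 and 0 CPM elsewhere (7.50 ± 0.56, adjusted p = 6.0e-06; 8.28 without replicate 2), and dendritic-like cells held 98.4% of the summed class means. CCR7, which guides cells to lymphoid tissue along CCL19, was spread over 3 receiver classes. It stood at 159, 143 and 145 CPM in B-like cells against 12.9, 13.2 and 8.44 CPM (3.59 ± 0.17, adjusted p = 3.1e-94), at 87.4, 38.8 and 69.3 CPM in dendritic-like cells against 11.8, 14.5 and 6.97 CPM (2.46 ± 0.27, adjusted p = 7.9e-05) and at 48.1, 53.9 and 45.3 CPM in T or NK-like cells against 11.1, 9.95 and 6.62 CPM (2.26 ± 0.14, adjusted p = 8.4e-06). No class overlapped with the other cells. Thus CCL19 was highest in fibroblast-like cells and CCR7 in B-like, dendritic-like and T or NK-like cells of the same tumours. CCR7 was at 2.99, 2.60 and 0.774 CPM in fibroblast-like cells.

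Lymphocyte classes carried further receptors. CXCR5, which leads B cells into follicles, stood at 6.63, 7.04 and 9.65 CPM in B-like cells against 0.0741, 0.0633 and 0.0759 CPM (6.60 ± 0.71, adjusted p = 2.1e-19), from 20 UMIs in the B-like cells. CCR6, the CCL20 receptor of B cells and some T cells, stood at 25.6, 21.1 and 19.3 CPM against 1.25, 0.582 and 1.32 CPM (4.57 ± 0.35, adjusted p = 6.4e-37). CXCR6, a receptor of tissue-resident T and NK cells, stood at 63.3, 62.0 and 57.9 CPM in T or NK-like cells against 1.03, 1.46 and 1.02 CPM (5.54 ± 0.13, adjusted p = 6.0e-07). CCR10, which brings plasma cells to mucosal surfaces, stood at 29.8, 50.4 and 35.4 CPM in plasma-like cells against 1.55, 2.10 and 2.64 CPM (6.05 ± 0.15, adjusted p = 3.2e-11). The 3 animals gave like values and no ranges overlapped, although replicate 3 rests on 65 B-like cells. In plasma-like cells CCR10 was 23.6, 38.3 and 30.1 CPM in the larger cluster and 55.7, 87.1 and 96.7 CPM in the smaller one, of which it is a leading gene. CCR9, a receptor of gut-homing T cells, was called in 5 classes at low levels, with neutrophil-like cells highest at 9.56, 7.06 and 7.17 CPM (3.90 ± 0.51, adjusted p = 4.0e-05) from 29 UMIs.

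**Figure D2:**
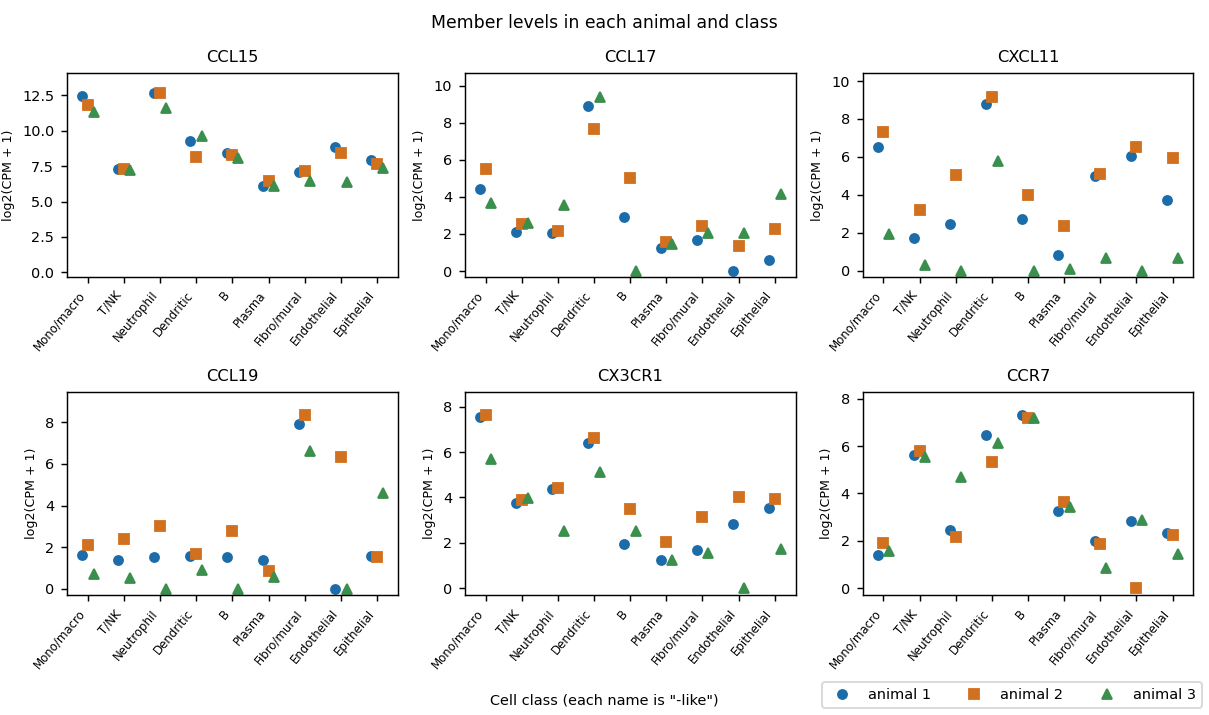
Level of 4 chemokines and 2 receptors in each class and animal, as log2(CPM + 1), with 1 symbol per animal and no error bars. CXCL11 is low in replicate 3 (triangles) in every class, including 53.8 CPM in dendritic-like cells, whereas CCL15 and CCR7 lie close together in the 3 animals of most classes.

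Of the 18 interleukins with at least 30 UMIs, 5 had their highest class mean in fibroblast-like cells: IL33, IL34, IL11, IL7 and IL17B. IL33, an alarm signal held in nuclei and released on damage, stood at 116, 158 and 110 CPM in fibroblast-like cells against 11.3, 29.5 and 12.7 CPM (2.68 ± 0.18, adjusted p = 0.00083). It was also higher in epithelial-like cells, at 122, 115 and 54.6 CPM against 37.5, 43.9 and 27.4 CPM (1.13 ± 0.18, adjusted p = 0.00086). In endothelial-like cells it stood at 83.2, 153 and 69.5 CPM against 39.7, 43.9 and 28.4 CPM (1.04 ± 0.22, adjusted p = 0.00099), a call lost without replicate 2 (0.73, adjusted p = 0.15). Each of these classes lay above the other cells in all 3 animals. Of the 2 endothelial-like clusters, the one led by FCN3, RAMP2 and CALCRL had IL33 at 156, 193 and 113 CPM, and the one led by MMRN1, a lymphatic vessel gene, at 0, 7.11 and 0 CPM. Endothelial-like cells of replicate 3, 45 cells, carried summed fibroblast markers at 1346 CPM and plasma cell markers at 39840 CPM, against 108 and 366 CPM and 2624 and 2763 CPM in replicates 1 and 2, and their part in the IL33 value was not tested.

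IL34, a ligand of the CSF1 receptor that sustains macrophages, stood at 71.5, 61.9 and 54.2 CPM in fibroblast-like cells against 2.05, 3.44 and 2.16 CPM (4.36 ± 0.21, adjusted p = 0.00068). IL11, a cytokine of the IL6 family made by activated fibroblasts, stood at 21.9, 24.4 and 30.9 CPM against 0.863, 1.73 and 0.482 CPM (4.48 ± 0.39, adjusted p = 0.0013). IL7, the survival factor of lymphocytes, stood at 6.83, 4.37 and 6.11 CPM against 0.361, 0.564 and 0.241 CPM (3.63 ± 0.36, adjusted p = 0.0018). IL17B, a scarcer member of the IL17 family named here after its values were seen, had 142 UMIs and stood at 1.60, 3.44 and 1.63 CPM against 0.12, 0.493 and 0.256 CPM (2.71 ± 0.36, adjusted p = 0.0037). For these 4 the fibroblast-like sums were above the other cells in every animal. IL17D, with 120 UMIs and also named after its values were seen, had its highest class mean in endothelial-like cells, at 0, 13.7 and 3.16 CPM from 10 UMIs, with overlapping ranges and a call (adjusted p = 0.0078) that was lost without replicate 2 (adjusted p = 0.80). Epithelial-like cells were highest in IL24, a cytokine of the IL10 family that acts on epithelium, at 24.8, 6.63 and 49.6 CPM against 1.86, 2.04 and 1.06 CPM (3.80 ± 0.55, adjusted p = 0.00049). Replicate 2 was the lowest, and leaving out single animals moved the difference between 2.82 (without replicate 3) and 4.43 (without replicate 2). IL24 lay in the cluster led by SCGB3A2, at 38.8, 20.3 and 71.5 CPM, and at most at 1.34 CPM in the alveolar cluster and at 5.20 CPM in the ciliated one.

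A second set was highest in myeloid cells. IL1A, an alarm cytokine that signals through IL1R1, stood at 241, 307 and 243 CPM in macrophage-like cells against 42.5, 30.4 and 68.4 CPM (2.62 ± 0.37, adjusted p = 0.0037) and at 429, 452 and 233 CPM in neutrophil-like cells against 86.8, 118 and 117 CPM (2.09 ± 0.28, adjusted p = 4.5e-05). IL23A, the chain that makes IL23 with the IL12 p40 chain, stood at 75.4, 82.6 and 97.0 CPM in macrophage-like cells against 21.5, 15.8 and 43.2 CPM (1.85 ± 0.31, adjusted p = 0.0062). In neutrophil-like cells it stood at 63.1, 91.8 and 81.2 CPM against 35.0, 37.3 and 58.5 CPM (1.21 ± 0.23, adjusted p = 0.00097). Ranges stayed apart in each of these comparisons. The highest IL23A was in an unnamed cluster led by RETN and MMP8, which scored for both macrophage and neutrophil markers: 203, 238 and 160 CPM in 341, 140 and 1307 cells. IL23A is itself among the leading genes of that cluster.

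IL27, a chain of a cytokine that restrains and directs T cells, stood at 19.5, 15.4 and 3.78 CPM in macrophage-like cells against 3.40, 2.94 and 1.50 CPM (2.20 ± 0.31, adjusted p = 0.0038) and at 17.7, 16.9 and 7.32 CPM in dendritic-like cells against 7.16, 6.54 and 2.00 CPM (1.38 ± 0.19, adjusted p = 0.00031). Replicate 3 was the lowest throughout, and the groups did not overlap. Within the macrophage-like clusters IL27 was highest in the IDO1 and IFIT2 cluster, at 39.9, 33.7 and 33.7 CPM, of which replicate 3 had 59 cells, so that within this cluster replicate 3 was level with replicate 2. IL15, which sustains NK and memory T cells, stood at 18.0, 13.7 and 3.88 CPM in dendritic-like cells against 3.75, 4.50 and 1.14 CPM (1.84 ± 0.23, adjusted p = 0.00015), with overlap from replicate 3. IL18, an activator of NK and T cells that is cut by inflammasomes, was spread widely: its class means were highest in dendritic-like (57.0 CPM) and fibroblast-like cells (53.9 CPM). IL12B, the p40 chain of IL12 and IL23, had 191 UMIs, of which 146 came from replicate 2, and its call in neutrophil-like cells (3.72 ± 0.66, adjusted p = 0.0006) was lost without that replicate (2.35, adjusted p = 0.37).

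**Figure D3:**
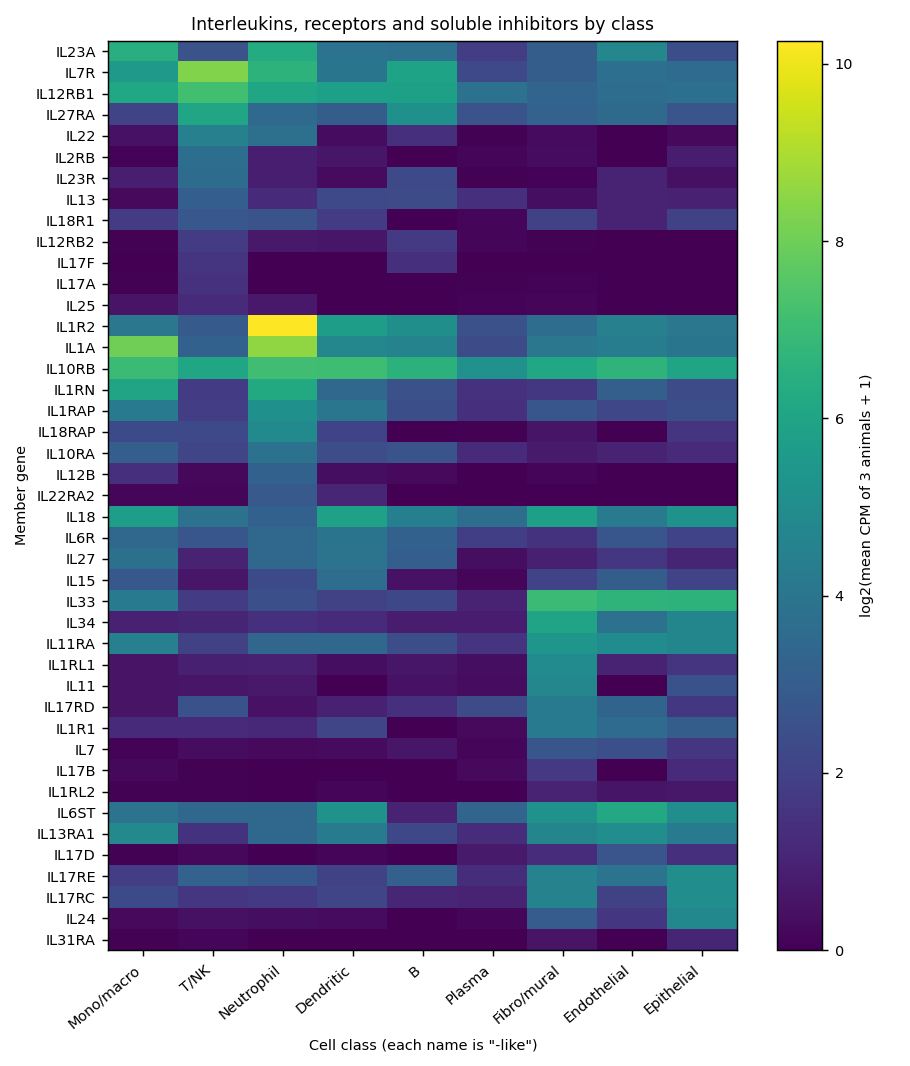
Mean level of each interleukin, interleukin receptor chain and soluble inhibitor with at least 30 UMIs (rows) in the 9 named classes (columns), as log2(mean CPM of the 3 animals + 1), to be compared along rows only. IL1R2 is brightest in neutrophil-like cells, IL7R, IL22 and IL23R in T or NK-like cells, and IL33, IL34, IL11, IL1RL1 and IL1R1 in fibroblast or mural-like cells.

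IL22, IL17F, IL13 and IL17A were highest in T or NK-like cells. IL22, which acts on epithelium, stood at 11.2, 4.46 and 47.6 CPM against 0.115, 0.1 and 1.03 CPM in other cells (5.52 ± 0.25, adjusted p = 2.2e-06). IL17F, which recruits neutrophils through epithelium and stroma, stood at 2.43, 0.475 and 2.92 CPM against 0.0327, 0 and 0.0668 CPM (5.54 ± 0.54, adjusted p = 8.1e-05) from 36 UMIs. IL13, a type 2 cytokine, stood at 5.53, 8.16 and 8.52 CPM against 0.818, 0.528 and 0.682 CPM (3.28 ± 0.30, adjusted p = 5.6e-05). No ranges overlapped, replicate 3 was highest in IL22, and replicate 2 was lowest in IL22 and IL17F. IL17A, the partner of IL17F, had 36 UMIs over all kept cells, of which 2 came from replicate 2, and its T or NK-like cells held 93.1% of the summed class means. IL12A, a chain of IL12, had 28 UMIs, 20 of them in T or NK-like cells. IL5, a type 2 cytokine that sustains eosinophils, had 22 UMIs, of which 1 was in T or NK-like cells. It was called higher in dendritic-like cells from 7 UMIs, at 0.667, 0.722 and 0.861 CPM against 0.0763, 0.0916 and 0.039 CPM (3.27 ± 0.79, adjusted p = 0.0086), a call lost without replicate 1 (3.41, adjusted p = 0.063).

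Of 23 receptor chains with at least 30 UMIs, 7 had their highest class mean in T or NK-like, 5 in neutrophil-like and 5 in fibroblast-like cells. Another 3 were highest in epithelial-like, 2 in endothelial-like and 1 in dendritic-like cells. Some were spread widely: IL10RB had class means of 138.8 CPM in neutrophil-like and 133.5 CPM in dendritic-like cells. IL13RA1, a receptor chain for IL13, had 31.35 CPM in endothelial-like and 27.1 CPM in macrophage-like cells. In T or NK-like cells IL7R, the receptor of IL7, stood at 353, 166 and 435 CPM against 17.5, 24.5 and 21.9 CPM (3.63 ± 0.28, adjusted p = 2.5e-05). IL2RB, the chain that reads IL2 and IL15, stood at 13.89, 8.92 and 13.01 CPM against 0.164, 0.3 and 0.0936 CPM (5.79 ± 0.36, adjusted p = 8.8e-06, and 6.47 without replicate 2). IL23R, the receptor of IL23, stood at 9.58, 5.03 and 19.1 CPM against 0.474, 0.3 and 0.388 CPM (4.53 ± 0.31, adjusted p = 1.4e-05). Replicate 2 was the lowest T or NK-like sample in each, still above all other cells. IL27RA, the receptor of IL27, stood at 54.6, 86.7 and 55.2 CPM against 4.19, 9.43 and 3.50 CPM (3.44 ± 0.14, adjusted p = 1.6e-06). IL12RB1, shared by the IL12 and IL23 receptors, stood at 125, 114 and 188 CPM against 34.7, 40.2 and 57.9 CPM (1.51 ± 0.09, adjusted p = 7.7e-06). IL12RB2, the chain particular to IL12, stood at 2.29, 3.42 and 1.79 CPM against 0.131, 0.357 and 0.0401 CPM (3.71 ± 0.42, adjusted p = 0.00018, and 4.32 without replicate 2). IL12RB1 and IL27RA did not overlap with other cells in any animal.

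The 4 clusters of T or NK-like cells differed in these members, given here as values with no test. The cluster led by CD40LG and ICOS, genes of helper T cells, held IL22 at 49.2, 19.4 and 122 CPM, IL7R at 1090, 670 and 834 CPM and CCR7 at 97.9, 95.6 and 70.7 CPM. The cluster led by FOXP3, the factor of regulatory T cells, held no IL22 UMI in any animal, but IL23R at 36.2, 22.8 and 35.5 CPM and IL2RB at 27.4, 15.2 and 27.5 CPM. The cluster led by GZMA and NKG7, genes of cytotoxic cells, held CXCR6 at 117, 99.6 and 88.7 CPM. Apart from the IL22 of the FOXP3 cluster, each of these values was above those of the other 3 clusters in the same animal. IL13 was found in all 4, between 3.32 and 20.9 CPM. IL7R was lowest in the EOMES cluster, at 20.8, 13.1 and 89.3 CPM.

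**Figure D4:**
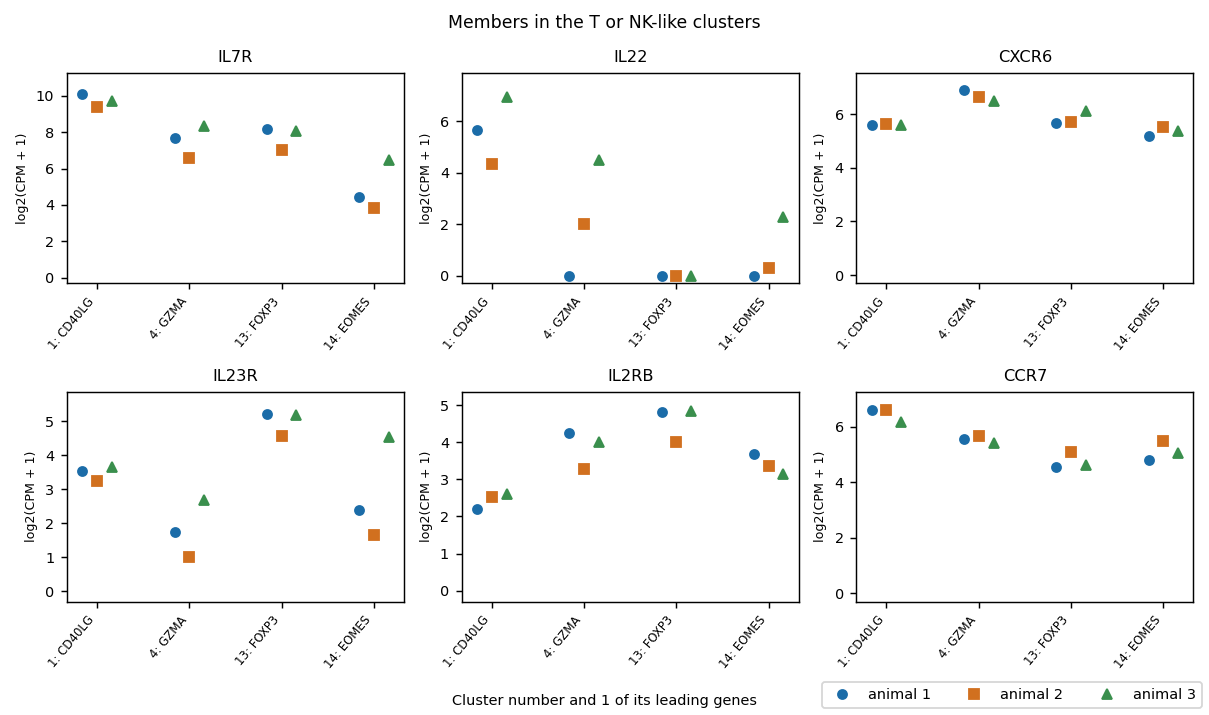
Level of 6 members in the 4 T or NK-like clusters and 3 animals, as log2(CPM + 1), with clusters named by number and 1 leading gene. IL22 and IL7R are highest in the CD40LG cluster, CXCR6 in the GZMA cluster, and IL23R and IL2RB in the FOXP3 cluster, in each of the 3 animals.

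Neutrophil-like cells carried receptors and decoys of the IL1 family. IL1R2, a decoy that binds IL1 without passing a signal, stood at 1725, 688 and 1262 CPM against 15.7, 7.15 and 17.6 CPM (6.83 ± 0.29, adjusted p = 8.9e-10). IL18RAP, the second chain of the IL18 receptor, stood at 23.0, 39.7 and 22.7 CPM against 1.88, 2.67 and 2.32 CPM (3.96 ± 0.30, adjusted p = 2.6e-07). IL1RAP, the shared second chain of IL1 and IL33 receptors, stood at 38.3, 38.9 and 26.3 CPM against 10.3, 8.47 and 11.5 CPM (2.13 ± 0.27, adjusted p = 3.1e-05). All 3 were clear of the other cells in each animal. IL1RAP was also higher in macrophage-like cells (20.6, 15.5 and 17.7 CPM against 7.52, 5.58 and 9.26 CPM, 1.35 ± 0.20, adjusted p = 0.0043). IL10RA stood at 17.2, 16.8 and 5.97 CPM in neutrophil-like cells against 3.03, 6.13 and 2.69 CPM (2.18 ± 0.37, adjusted p = 0.00039). Its ranges overlapped, and the call was lost at 2000 UMIs per cell or more (adjusted p = 0.061). IL18R1, the other chain of the IL18 receptor, missed the threshold in neutrophil-like cells (1.32 ± 0.49, adjusted p = 0.054). IL7R and IL22 were called in neutrophil-like cells too (1.05, adjusted p = 0.022, and 2.49, adjusted p = 0.0051), but only 2 of 3 animals were higher. Both calls were lost without replicate 3 (0.36, adjusted p = 0.20, and 0.49, adjusted p = 0.80), and both differences were below 0 with a finer clustering (-1.68 and -1.95). In replicate 3 the 8 measured T cell markers summed to 1115 CPM in neutrophil-like cells, against 283 and 256 CPM in replicates 1 and 2, and CD3D in the larger cluster stood at 891 CPM against 154 and 139 CPM.

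Of the 4 soluble inhibitors, IL1RN and IL22RA2 were highest in neutrophil-like cells. IL1RN, which blocks IL1R1, stood at 44.6, 101 and 44.2 CPM in macrophage-like cells against 6.11, 9.72 and 11.9 CPM (2.78 ± 0.37, adjusted p = 0.0032) and at 51.6, 149 and 23.9 CPM in neutrophil-like cells against 15.4, 38.5 and 21.2 CPM (1.77 ± 0.31, adjusted p = 0.00058). Replicate 2 was highest in both classes, and the neutrophil-like ranges overlapped with the other cells. IL22RA2, a soluble protein that captures IL22 and is named here after its values were seen, stood at 7.01, 6.18 and 5.97 CPM in neutrophil-like cells against 0.254, 0.0378 and 0.051 CPM (6.18 ± 0.74, adjusted p = 1.8e-05, and 7.30 without replicate 1), from 23 UMIs. IL22 and its decoy were thus highest in different classes, T or NK-like and neutrophil-like cells, while IL22RA1, the signalling receptor, had 17 UMIs in all. IL36RN, which blocks the IL36 receptor, had 13 UMIs, with its highest class mean in epithelial-like cells (0.943 CPM), and IL18BP had 0.

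Fibroblast-like cells, whose clusters differ in Alk as described below, carried another receptor set. IL1RL1, the receptor of IL33, stood at 13.9, 49.2 and 25.9 CPM against 0.482, 2.89 and 0.482 CPM (4.54 ± 0.30, adjusted p = 0.00083). IL1R1, the signalling receptor of IL1A, stood at 17.1, 16.8 and 17.7 CPM against 1.55, 1.71 and 2.20 CPM (2.97 ± 0.19, adjusted p = 0.00078). IL11RA, the receptor of IL11, stood at 33.5, 48.8 and 38.2 CPM against 12.4, 14.0 and 11.0 CPM (1.40 ± 0.14, adjusted p = 0.0018). None of these ranges overlapped. In each pair of IL33 with IL1RL1 and IL11 with IL11RA, source and receptor were thus both highest in fibroblast-like cells, while IL1A was highest in neutrophil-like and macrophage-like cells and IL1R1 in fibroblast-like cells. IL1RL1 is also known from mast cells, and the 5 measured mast cell and basophil markers summed to between 2.35 and 5.21 CPM in fibroblast-like cells, with none at 0.

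The receptor chains for IL17 cytokines were shared by fibroblast-like and epithelial-like cells. IL17RC, which pairs with the common IL17 chain to read IL17A and IL17F, stood at 24.0, 25.1 and 20.7 CPM in fibroblast-like cells against 4.38, 8.60 and 4.39 CPM (1.79 ± 0.18, adjusted p = 0.002). It stood at 32.4, 34.1 and 29.6 CPM in epithelial-like cells against 9.06, 10.3 and 6.01 CPM (1.74 ± 0.17, adjusted p = 4.9e-05). IL17RE, which reads IL17C, stood at 30.9, 29.4 and 36.6 CPM in epithelial-like cells against 8.11, 6.63 and 7.75 CPM (1.86 ± 0.17, adjusted p = 2.6e-05), and at 20.6, 18.9 and 27.0 CPM in fibroblast-like cells against 4.30, 5.31 and 5.50 CPM (1.85 ± 0.13, adjusted p = 0.00084). Both classes were above the other cells in 3 of 3 animals for both chains. IL17A and IL17F thus lay in T or NK-like cells and IL17RC in fibroblast-like and epithelial-like cells. Of the fibroblast-like IL17RC UMIs, 774 lay in the cluster called Alk-high below and 183 in the other. Its levels there were 23.6, 27.0 and 20.6 CPM against 26.0, 21.0 and 20.9 CPM. IL17C itself, named after its values were seen, had 3 UMIs. IL6ST, the signal chain of the IL6 and IL11 receptors, was highest in endothelial-like cells at 95.5, 56.2 and 63.2 CPM against 23.4, 14.2 and 21.2 CPM (1.48 ± 0.24, adjusted p = 4.6e-05). IL6ST was also higher in fibroblast-like cells, at 43.2, 28.7 and 37.5 CPM against 16.4, 12.6 and 18.2 CPM (0.93 ± 0.14, adjusted p = 0.0059). IL6R was highest in dendritic-like cells, at 13.02, 16.37 and 13.35 CPM against 4.81, 6.71 and 6.46 CPM (1.19 ± 0.18, adjusted p = 0.00053).

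Directions in plasma-like cells depended on scaling. The fitted scale lay 1.83 log2 above CPM for the median feature of this comparison, whose plasma-like cells held 322700 to 426600 CPM in the 5 measured plasma cell markers, the antibody light chain gene IGKC among them. Of the 10 members called higher, 3 (CCR10, CCR6 and IL13) were also higher by CPM in all 3 animals. IL6ST, IL27RA and IL10RB were fitted higher (0.57, 0.56 and 0.43) but lower by CPM in all 3 animals, so their direction flips with the scale. In the other comparisons the scale moved the median feature by between -0.39 (endothelial-like) and 0.33 (neutrophil-like), and by -0.28 in fibroblast-like, -0.23 in epithelial-like, -0.17 in T or NK-like and -0.11 in Alk-high cells.

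Fibroblast-like cells fell into 2 clusters that differed in Alk, the gene joined by the engineered inversion: one led by MMP3, IGF2 and SFRP4 had 14.6 CPM of Alk and the other, led by FIBIN, MGP and MFAP4, had 1.72 CPM. The threshold of 5 CPM that calls the first Alk-high was known from earlier work on these data. Among 36 members tested between them, 20 were lower in the Alk-high cells (23.1% of all features were lower) and 6 were higher (24.1% of all features). Of the lower ones, CCL15, CCL17, CCR1, CCR7, CCR10, CX3CR1, IL7R, IL10RB, IL23A and IL1R2 have their highest class mean in an immune class. So do CXCL11 and IL18 among the higher ones. Low levels such as CCR10, at 0.554, 1.67 and 1.65 CPM against 3.6, 3.33 and 3.42 CPM, were not read as expression. The count of 20 is therefore not one of genes these cells express. The strongest fall was in the chemokines. CCL19 stood at 5.35, 2.27 and 0.486 CPM in Alk-high cells against 1747, 1035 and 479 CPM in the other fibroblast-like cells (-8.80 ± 0.24, adjusted p = 3.9e-08). CCL11 stood at 10.9, 3.03 and 1.17 CPM against 1101, 484 and 232 CPM (-7.11 ± 0.20, adjusted p = 4.8e-08), and CXCL14 at 0.615, 0.303 and 1.46 CPM against 294, 78.7 and 252 CPM (-8.23 ± 0.23, adjusted p = 4.7e-08). The 2 sides were far apart in every animal. Among fibroblast-like cells, the 3 chemokines described above thus lay almost wholly in the cluster with little Alk. CCL19 and CCL11 are leading genes of that cluster, but no member entered the clustering. At Leiden resolution 2 they were leading genes of a cluster of 416 fibroblast-like cells. They were not among the leading genes of a larger cluster of 828 cells led by A2m, FIBIN and MFAP4. Outside this comparison, the epithelial-like cluster led by SCGB3A2, which held CXCL14, had 15.5 CPM of Alk. The unnamed clusters led by SERPINE2 and SPINK5 and by SPP1 and DMP1 had 63.2 and 50.6 CPM of Alk and were not compared.

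IL33, its receptor and the IL11 receptor were lower as well. IL1RL1 stood at 3.82, 6.51 and 4.57 CPM against 79.3, 143 and 109 CPM (-4.58 ± 0.14, adjusted p = 6.0e-08), IL11RA at 14.1, 16.8 and 14.2 CPM against 159, 119 and 132 CPM (-3.31 ± 0.15, adjusted p = 5.9e-07) and IL33 at 94.8, 77.8 and 71.4 CPM against 252, 335 and 261 CPM (-1.91 ± 0.15, adjusted p = 1.4e-05). The ranges did not overlap. IL11 itself was not called between the 2 clusters, with 747 UMIs in Alk-high cells and 296 in the other. Its levels were 21.8, 8.63 and 32.7 CPM against 22.4, 59.0 and 23.9 CPM (-0.85 ± 0.49, adjusted p = 0.18). IL11 and IL11RA were thus not split alike between these clusters. In the other direction, IL24 stood at 6.89, 14.2 and 5.93 CPM in Alk-high cells against 0, 0.333 and 0 CPM. This is 267 UMIs against 1, a ratio of pooled levels of 65.5 with an exact binomial 95% interval from 11.7 to 2597 that covers counting error only. IL17RD, a chain also known to damp growth factor signals, stood at 20.5, 30.4 and 14.1 CPM against 2.80, 2.33 and 3.04 CPM (2.87 ± 0.28, adjusted p = 5.8e-05), IL18 at 102, 34.2 and 48.4 CPM against 30.8, 14.0 and 13.3 CPM (1.53 ± 0.15, adjusted p = 5.1e-05) and IL17RE at 23.1, 22.7 and 31.4 CPM against 4.41, 10.3 and 9.87 CPM (1.53 ± 0.23, adjusted p = 0.00067). All 3 animals agreed in direction for these members. IL34 was called higher too (0.55 ± 0.12, adjusted p = 0.0042), but not among cells matched on UMIs (0.22, adjusted p = 0.32).

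**Figure D5:**
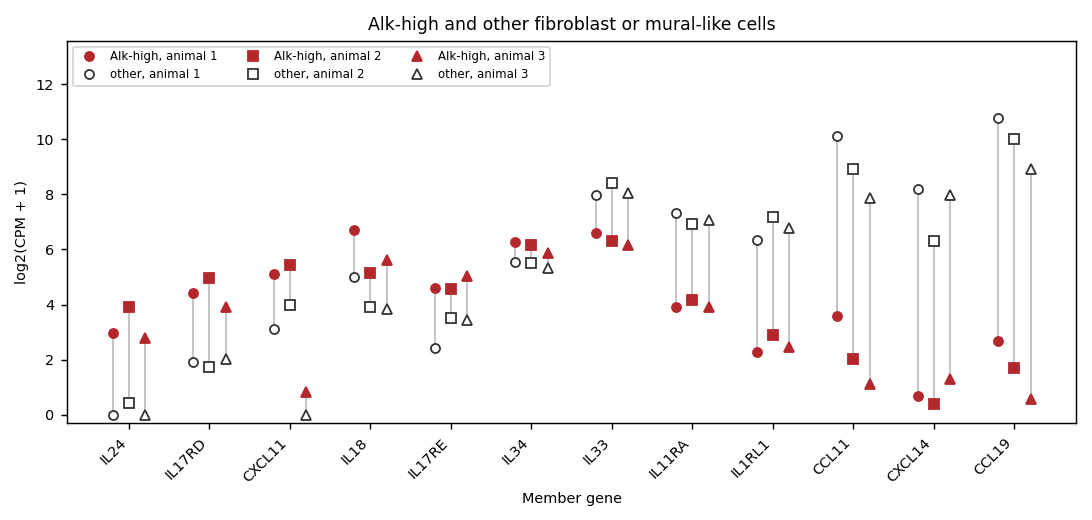
Level of 12 members in Alk-high (filled) and other (open) fibroblast or mural-like cells of each animal, as log2(CPM + 1), with a line joining the 2 values of 1 animal. CCL19, CXCL14, CCL11, IL1RL1, IL11RA and IL33 are lower in the Alk-high cells of all 3 animals, and IL24, IL17RD, CXCL11, IL18, IL17RE and IL34 are higher.

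Alk-high cells were deeper, with median UMIs of 19980, 18241 and 15583.5 against 5702, 5524.5 and 4915. Among 187, 156 and 216 cells per side matched on UMIs, 26 members could be tested, and 12 were lower. Of the 20 lower calls, 11 were kept, 4 were lost and 5 (CCL27, CCR1, CCR7, CCR10 and CX3CR1) had too few counts to be tested. The lost calls were those of CCL15 (-0.54, adjusted p = 0.056), CCL17 (-0.68, adjusted p = 0.28), IL7R (-0.40, adjusted p = 0.37) and IL1R1 (-0.21, adjusted p = 0.54). The highest class of the first 3 of these is an immune one, but so is that of IL10RB, IL23A and IL1R2, whose calls were kept. The calls of CX3CR1 and IL1R1 were also lost when any 1 animal was left out (CX3CR1 -0.74 to -1.10, IL1R1 -0.29 to -0.57), those of CCR7 without replicate 2 (-1.22) or 3 (-1.08), of CCR10 (-1.15) and CCL17 (-1.09) without replicate 1 and of CCR1 without replicate 2 (-1.02).

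Levels over all kept cells differed between animals more for some members than for others. Among the 64 members with at least 30 UMIs the highest animal was a median of 1.99 times the lowest, and 32 were under 2 times and 6 over 5 times. CXCL11 differed most, at 53.6, 92.2 and 2.65 CPM. IL17A (0.204, 0.0248 and 0.252 CPM), IL12B (0.263, 1.81 and 0.341 CPM), IL12RB2 (0.365, 0.757 and 0.139 CPM), IL22 (1.31, 0.67 and 3.65 CPM) and CCL11 (44.0, 19.4 and 8.15 CPM) followed. The animals have 1 library each and 1 label, so these differences have no test. For CXCL11 the gap also held within dendritic-like cells (445, 579 and 53.8 CPM) and within the IDO1 and IFIT2 macrophage cluster (233, 325 and 96.2 CPM), where it was smaller.

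The wider pathway list held 33 decoy receptors, related cytokines, kinases and feedback genes, of which 21 were measured and tested. Decoy receptors that clear chemokines were highest in endothelial-like cells for 3 of 4: ACKR3 stood at 487, 392 and 370 CPM in endothelial-like cells against 3.90, 3.76 and 4.28 CPM (6.29 ± 0.22, adjusted p = 4.5e-17), ACKR1 at 271, 86.6 and 75.8 CPM against 1.51, 1.87 and 1.28 CPM (5.94 ± 0.33, adjusted p = 5.9e-13) and ACKR2 at 203, 56.2 and 82.2 CPM against 1.88, 2.14 and 1.11 CPM (5.49 ± 0.34, adjusted p = 4.1e-12). ACKR3 was also higher in fibroblast-like cells, at 11.0, 17.0 and 16.9 CPM against 4.38, 5.57 and 3.56 CPM (1.45 ± 0.19, adjusted p = 0.0036). These held 588 of its 1437 UMIs and endothelial-like cells 533, and within them it stood at 74.9, 50.7 and 80.1 CPM in the cluster with little Alk. ACKR2 was also higher in dendritic-like cells, at 15.4, 19.2 and 12.0 CPM against 2.26, 1.68 and 1.12 CPM (3.16 ± 0.25, adjusted p = 8.5e-06), and in B-like cells (2.04 ± 0.41, adjusted p = 4.4e-06), where replicate 3 was at 0, and ACKR1 in epithelial-like cells (1.78 ± 0.53, adjusted p = 0.024). Of the 21, 7 were higher and 4 lower in endothelial-like cells (10.3% and 14.9% of all features). ACKR4, the decoy that takes up CCL19, was highest in epithelial-like cells at 81.5, 77.7 and 33.4 CPM against 4.24, 4.35 and 4.79 CPM (3.51 ± 0.31, adjusted p = 2.1e-05), where 4 were higher and 9 lower (19.2% and 19.8% of all features). The ranges were apart for all 4 decoys in the class where each was highest.

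Of the same 21 genes, 11 were higher and 3 lower in neutrophil-like cells (14.6% and 15% of all features). OSM, an IL6 family cytokine, stood there at 1010, 1021 and 210.3 CPM against 38.2, 49.0 and 26.4 CPM (4.40 ± 0.35, adjusted p = 4.9e-07). Its receptor OSMR was highest in endothelial-like cells, at 101.6, 88.1 and 79.0 CPM against 20.9, 22.8 and 16.8 CPM (1.74 ± 0.23, adjusted p = 1.6e-06). OSMR was also higher in fibroblast-like cells, at 68.1, 85.1 and 71.2 CPM against 3.67, 15.0 and 6.48 CPM (3.09 ± 0.33, adjusted p = 0.0021). In epithelial-like cells it stood at 35.4, 42.6 and 55.7 CPM against 20.9, 23.1 and 15.3 CPM (0.97 ± 0.20, adjusted p = 0.0045). In T or NK-like cells 5 were higher and 13 lower (28.4% and 34.9% of all features), with JAK3, the kinase of receptors with the common gamma chain, at 117, 148 and 115 CPM against 10.9, 22.1 and 7.83 CPM (3.16 ± 0.18, adjusted p = 5.3e-06) and STAT4, the factor behind the IL12 receptor, at 31.7, 33.1 and 41.0 CPM against 4.37, 7.27 and 2.46 CPM (2.81 ± 0.29, adjusted p = 0.00011). Ranges did not overlap for these genes. JAK3 was also higher in B-like cells, at 93.8, 119.6 and 125.5 CPM against 21.3, 36.9 and 13.6 CPM (2.08 ± 0.17, adjusted p = 8.5e-32). It stood at 67.8, 110.9 and 56.9 CPM in endothelial-like cells (1.31 ± 0.23, adjusted p = 0.00011). STAT4 was also higher in neutrophil-like cells, at 22.3, 54.7 and 19.1 CPM against 6.97, 10.0 and 4.48 CPM (2.44 ± 0.26, adjusted p = 7.7e-06). In macrophage-like cells 8 were higher and 9 lower (22.7% and 28.1% of all features), in dendritic-like cells 8 and 9 (16.9% and 24.5%), in B-like cells 6 and 10 (16.9% and 25.2%) and in fibroblast-like cells 4 and 10 (23.3% and 24.1%). In plasma-like cells 2 were higher and 14 lower (22.7% and 29.9%), and neither of the 2 was higher by CPM in all 3 animals. JAK3 was fitted higher (1.27) but stood at 12.4, 26.2 and 12.5 CPM against 24.5, 39.5 and 14.2 CPM, so its direction flips with the scale, and CNTFR (1.86) was lower by CPM in replicate 3. Between the fibroblast-like clusters 1 was higher and 14 were lower in the Alk-high one (24.1% and 23.1% of all features).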

How the data were processed

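The authors deposited 1 matrix of raw UMI counts per animal, not normalized, per the file headers, with 9500, 10000 and 10000 barcodes. Cell Ranger is 7.1.0 in the headers and 8.0.0 in the submitters' processing notes. What build, what annotation and what handling of reads from gene copies were used is not stated there. Gene symbols are those of the files, and 37.8%, 36.8% and 37.2% of the UMIs lay in features with none. The lowest barcode totals were 1298, 1150 and 2174 UMIs.

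A barcode was kept as a cell from 1000 UMIs and 500 genes upward if fewer than 20% of its UMIs came from 13 mitochondrial genes. That last limit removed 1373, 949 and 2027 barcodes. Scrublet in scanpy 1.11.5 marked 1 cell by itself and so had not worked. A doublet score of 0.2 was used in its place and removed 445 cells. This left 24599 cells. The libraries shared 24, 21 and 31 barcodes in pairs, of which 0 had equal totals. Clustering without members and pathway genes used 2000 variable genes, 30 principal components, 20 neighbours and Leiden resolution 1 (leidenalg 0.10.2), with no integration of animals, and 28 clusters resulted. An X-like name was given where at least 3 markers were found in at least 10% of a cluster's cells at least 1 log2 unit above the median cluster and no other lineage scored 60% as high. The value of 60% was set after clusters had been seen: at 50% no cluster would have been B-like or neutrophil-like.

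UMIs were summed per animal and class and tested in R 4.3.3 with edgeR 4.0.16: its quasi-likelihood test after TMM scaling and filterByExpr, with a term for the animal and Benjamini-Hochberg adjustment over all features at 0.05. The comparison was each class against all other cells of the same animals. The animal is a block because both sums come from it, so the pairing comes from the design. Each animal has 1 library, so p-values refer to the spread between these 3 libraries, with the spread of each feature drawn toward a value shared over features. Very small values, such as the adjusted p of 3.1e-94 for CCR7 in B-like cells, rest on that shared value. They do not measure the gene's own spread over 3 animals and are not to be ranked between classes. On simulated counts for 14513 genes of the macrophage comparison the test recovered 46.5% of changes of 1 log2 unit and 96.9% of changes of 2. The simulation gave all genes the same dispersion, put no difference between animals and changed few genes, so these rates may not hold for the data. Alternatives were DESeq2 1.42.0, no filter, no block, each animal left out, at least 2000 UMIs per cell, Leiden resolution 2, named cells as reference, 1 joint fit and cells matched on UMIs.

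Named members are up to 8 per comparison with the largest change past the threshold, the same direction in 3 of 3 animals and at least 30 UMIs on the higher side, plus measured members of a list of source and receiver pairs. From that list IL5RA, IL31RA, IL20RA, IL20RB, IL36A and IL36G, with between 1 and 42 UMIs each over all kept cells, are not described. A few others are marked in the text as named after their values were seen. The members and lists were chosen with earlier results of these data known. No sequence is printed.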

Additional observations from a re-analysis of the deposited data

How the results depend on the processing

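Without the replicate block, that is without the pairing of both sums of 1 animal, 113 of 140 calls of members kept their side of the threshold and 27 lost it, and 11 members were higher in dendritic-like cells in place of 18. No other count of members moved by more than 1.5 times without the block. In 1 joint fit over all classes, 9 members were higher in B-like cells (5 in the separate fit), 10 in endothelial-like cells (3) and 12 in epithelial-like cells (6). Among cells matched on UMIs, 12 members were lower in Alk-high fibroblast-like cells in place of 20, where 26 members in place of 36 had enough counts to be tested: 5 of the 20 could not be tested and 4 were lost.

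With 1 animal left out at a time, members called higher ranged from 13 to 20 in macrophage-like, 15 to 16 in T or NK-like, 16 to 19 in neutrophil-like, 14 to 14 in dendritic-like, 5 to 7 in B-like, 7 to 10 in plasma-like, 16 to 19 in fibroblast-like, 1 to 3 in endothelial-like and 5 to 8 in epithelial-like cells. In Alk-high cells 6 stayed the count higher, and 16 to 18 were lower. The 1 in endothelial-like cells is the value without replicate 2, which holds 101 of the 199 cells. At Leiden resolution 2 IL22 and IL7R in neutrophil-like cells changed sign (-1.95 and -1.68), and no other named call changed sign under any alternative run. DESeq2 kept 128 of 140 calls, no filter on low counts 133 of 140, at least 2000 UMIs per cell 134 of 138 and named cells as reference 106 of 111. Depth limits the scarce members: 64 of 85 had at least 30 UMIs, and the endothelial-like class, with 199 cells, gave few calls.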
